A study of Mus musculus with 16 samples.

Results

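Alpha-arrestins are adaptor proteins with an arrestin fold. Most of them carry short proline-tyrosine motifs that recruit ubiquitin ligases of the NEDD4 family to membrane proteins, which are then ubiquitinated and taken into the cell. *Txnip* encodes thioredoxin-interacting protein, which binds reduced thioredoxin and restrains glucose uptake by promoting endocytosis of glucose transporters. *Txnip* and *Arrdc4* are textbook targets of MondoA (*Mlxip*) and ChREBP (*Mlxipl*), transcription factors that bind DNA together with Mlx when sugar phosphates accumulate, and ChREBP is the main form of the liver. The members described here were chosen by gene symbol as *Txnip* and *Arrdc1* to *Arrdc4*, 5 genes of 55450 in the table, and all 5 were among the 11675 genes tested (mean level of 1 CPM or more, where CPM is a gene's count scaled to the size of its library). The family was put forward with earlier results of these 16 libraries known, and which values led to it is not recorded. Every comparison of the 5 genes is therefore a description, with its standard error or 95% interval. Whether a gene was called (adjusted p under 0.05 over all genes tested) is stated without being read as support.

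The RNA came from primary hepatocytes of wild-type mice, the main cells of the liver, kept overnight in complete medium with serum, insulin, transferrin and selenium. In addition to this medium, which all groups shared, the cells received nothing (untreated), 10 mM sodium itaconate, a chemically defined lipid mixture of fatty acids and cholesterol diluted 10-fold, or both. None of the groups was a vehicle control for the lipid mixture, so its lipids and the dilution of the medium by it cannot be told apart. Each group had 4 libraries named by the replicate letters A to D. The strain and age of the mice are not in the labels, and nothing in them says whether the letters are separate animals or separate cultures.

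Expected counts per library added up to between 22346049 and 35512004 (median 27719372). The hepatocyte label was checked against 6 markers, whose summed level was 30100 to 53940 CPM over the 16 libraries, led by albumin (*Alb*, 33450 CPM on average). That sum was 38720 to 53580 CPM in untreated and 38740 to 53940 with itaconate. It was 34070 to 45280 CPM with lipid and 30100 to 50120 with both. With lipid *Alb* (log2 fold change -0.18) and *Ttr* (-0.20) were called lower. In the presence of itaconate lipid lowered *Alb* (-0.18), *Ttr* (-0.20), *Serpina1a* (-0.18) and *Cps1* (-0.57). Markers of stellate cells and of lymphocytes summed to at most 2.03 and 1.27 CPM, and those of endothelial cells to 10.4 to 20.8 CPM. The summed macrophage markers were 157 to 259 CPM in untreated, 137 to 212 with itaconate, 216 to 311 with lipid and 202 to 306 CPM with both. Nearly all of this sum was *Cd68* (218 CPM on average), which was called higher with lipid (log2 fold change 0.43, and 0.58 in the presence of itaconate) and lower with itaconate alone (-0.24). The rest of the list did not follow it. *Adgre1* was called lower with lipid (-0.82), and in the presence of itaconate lipid lowered *Adgre1* (-1.52), *Csf1r* (-0.87), *Clec4f* (-0.62) and *Lyz2* (-0.59), while *Lyz2* was called higher with itaconate alone (0.50). *Clec4f* and *Timd4*, which define resident Kupffer cells, averaged 2.19 and 0.180 CPM. The summed cholangiocyte markers were 599 to 1169 CPM in untreated, 572 to 1047 with itaconate, 335 to 608 with lipid and 355 to 645 CPM with both, nearly all of it *Spp1* and *Sox9*, with *Krt19*, *Krt7* and *Epcam* averaging at most 0.298 CPM. The part of other cells in the results below was not tested. Lipid + itaconate replicate B stood apart, differing from the other libraries of its group by 106 to 147 times counting noise (chi-square per gene), against at most 64.5 for any other pair of libraries in a group.

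The promoters of *Txnip* and *Arrdc4* are shown because these members differed most with lipid. The windows run from 250 bases before to 50 bases after the transcription start in RefSeq (GRCm38.p6). *Txnip* is at chr3:96557707-96558006 on the plus strand and *Arrdc4* at chr7:68749189-68749488 on the minus strand, both written 5′ to 3′. Capitals mark CCAAT on either strand, the E-box CACGTG, and a pair of E-box-like elements (CACGNG or its reverse complement CNCGTG, in any order) with 5 bases between them, which is the layout of a carbohydrate response element. The looser pair was chosen after the sequences had been seen.
Txnip: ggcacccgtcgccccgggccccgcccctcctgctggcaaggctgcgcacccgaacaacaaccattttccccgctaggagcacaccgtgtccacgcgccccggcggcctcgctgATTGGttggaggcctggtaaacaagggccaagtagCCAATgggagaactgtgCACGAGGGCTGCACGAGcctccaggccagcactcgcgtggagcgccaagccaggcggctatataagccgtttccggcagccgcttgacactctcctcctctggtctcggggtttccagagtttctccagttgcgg
Arrdc4: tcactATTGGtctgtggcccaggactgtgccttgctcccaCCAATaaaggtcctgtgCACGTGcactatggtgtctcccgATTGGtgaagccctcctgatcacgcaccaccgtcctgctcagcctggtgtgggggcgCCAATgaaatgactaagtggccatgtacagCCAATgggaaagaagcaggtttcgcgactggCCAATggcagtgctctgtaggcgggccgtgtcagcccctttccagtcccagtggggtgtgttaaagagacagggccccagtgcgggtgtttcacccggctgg

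The *Txnip* window held 1 E-box-like pair, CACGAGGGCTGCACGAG, from -85 to -69 relative to the start. Such a pair was present in 27 of 32851 promoter windows of this length (0.0822%). Because this looser pair was chosen with the sequences seen, that share does not measure how unusual the match is. The *Arrdc4* window held no such pair but 1 CACGTG, from -193 to -188, a hexamer found in 7.15% of windows and itself a form of CACGNG. The CCAAT box occurred 2 times in the *Txnip* and 6 times in the *Arrdc4* window, and at least once in 37.4% of all windows. *Arrdc2* had 3 CCAAT matches, *Arrdc3* had 1, and the *Arrdc1* window had none of the 3 motifs. These are matches of letters in a short window, and binding was not measured.

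**Figure D1:**
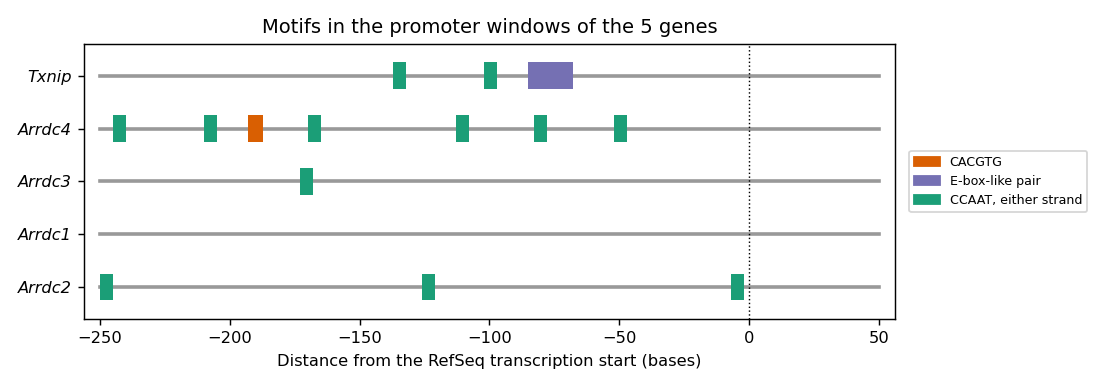
Motif matches in the promoter windows of the 5 alpha-arrestin genes, plotted by distance from the RefSeq transcription start in bases (dotted line, start), with 1 grey line per gene and colored boxes for the 3 motifs. The E-box-like pair is found only in the *Txnip* window and CACGTG only in the *Arrdc4* window, and *Arrdc4* holds 6 CCAAT boxes.

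*Txnip* (ENSMUSG00000038393.14) lies at chr3:96557957-96561883 on the plus strand, *Arrdc4* (ENSMUSG00000042659.15) at chr7:68736995-68749241 on the minus strand, and *Arrdc3* (ENSMUSG00000074794.10) at chr13:80883384-80896042 on the plus strand of GRCm38. *Arrdc1* (ENSMUSG00000026972.15) is at chr2:24925352-24935252 and *Arrdc2* (ENSMUSG00000002910.11) at chr8:70835129-70839720, both on the minus strand. All are protein-coding, and the values cover the whole gene, with all its transcripts. An antisense gene, *Gm15441*, overlaps *Txnip* and had 37 counts in all 16 libraries together, and the antisense *1700023H06Rik* at *Arrdc3* had 2. Whether the counting used strand is not given in the sources used here, although the kit was stranded. *Arrdc5*, a further gene of this name that was not among the 5, had 0 counts in every library, which allows a level of up to 0.0845 to 0.134 CPM depending on the library (3 counts, counting error only).

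Levels of different genes were compared per kilobase of exon (CPM per kb). In untreated hepatocytes *Arrdc4* was highest at 12.0 ± 1.13 CPM per kb (SD, n = 4). *Txnip* (8.35 ± 1.43) and *Arrdc3* (7.16 ± 1.17) followed with overlapping ranges, then *Arrdc1* (1.99 ± 0.291) and *Arrdc2* (0.891 ± 0.143) at lower, separate ranges. In itaconate-treated hepatocytes the order was the same, and *Arrdc4* (11.5 ± 1.98), *Txnip* (10.6 ± 1.78) and *Arrdc3* (8.88 ± 0.711) overlapped with their neighbors. With lipid *Txnip* took the first place at 44.4 ± 5.60 CPM per kb, above *Arrdc4* at 20.2 ± 3.67 and *Arrdc3* at 9.57 ± 0.917, with no overlap between neighbors. With lipid + itaconate *Txnip* was again highest (31.4 ± 12.5), and *Arrdc4* (13.8 ± 2.19) and *Arrdc3* (9.24 ± 2.04) overlapped at their edges. In terms of reads, *Txnip* made up 20.4% of the family in untreated hepatocytes and 23.2% with itaconate, and its share was 48.2% with lipid and 43.6% with both. The summed level of the 5 genes went from 127 ± 14.5 CPM in untreated to 287 ± 29.3 CPM in lipid-treated hepatocytes (SD, n = 4).

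**Figure D2:**
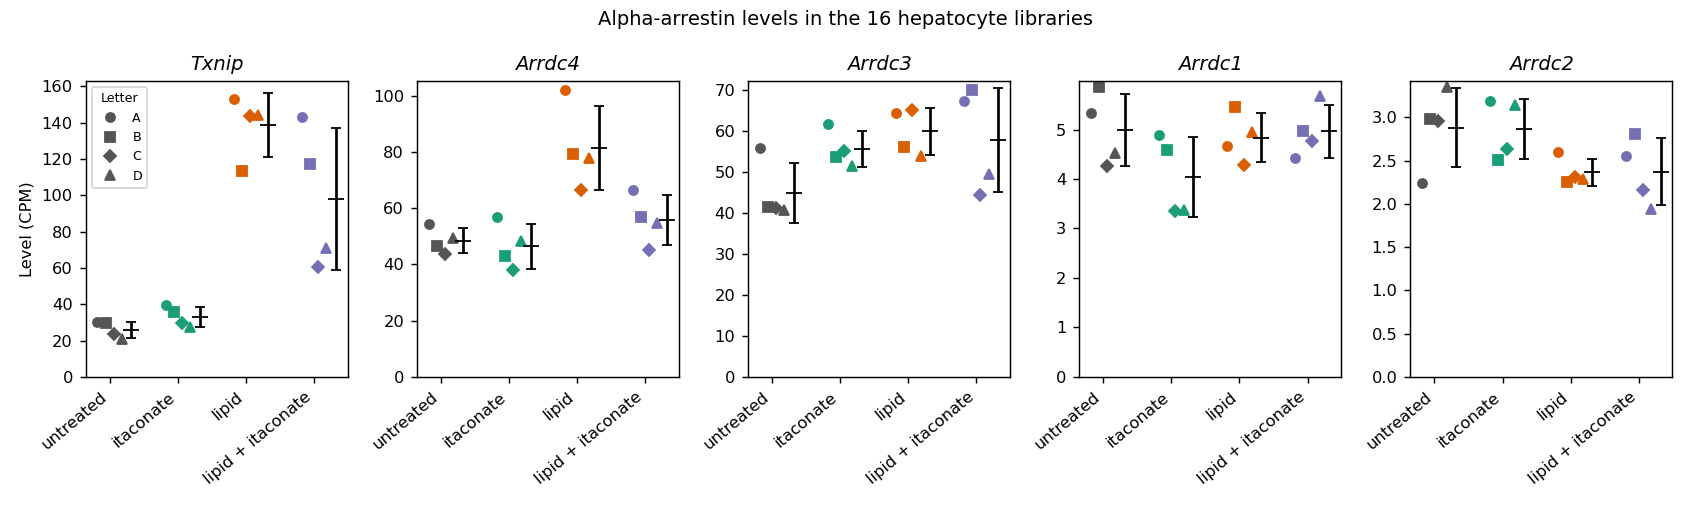
Level of each alpha-arrestin gene in CPM (y axis, from 0) in the 4 treatment groups (x axis), with 1 point per library, its shape giving the replicate letter, and the mean with SD in black. The 4 lipid-treated libraries of *Txnip* are at 113 to 153 CPM, above every untreated and itaconate-treated library, and the lipid + itaconate libraries split into A and B (143 and 117 CPM) and C and D (60.6 and 71.1 CPM).

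The first question was what the lipid mixture did to this family. *Txnip* was at 30.1, 29.6, 23.5 and 21.1 CPM in untreated libraries A to D and at 153, 113, 144 and 144 CPM in lipid-treated libraries A to D. Every lipid-treated library was well above every untreated library. The difference was 5.42-fold (95% interval 4.25 to 6.92, log2 fold change 2.44, standard error 0.17), present in all 4 letters. It was the 6th largest rise of the 11675 genes tested. In bulk RNA, more cells that express a gene and more of its RNA per cell cannot be told apart, and this holds for all values here.

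*Arrdc4*, which shares its Mondo regulation with *Txnip* and is likewise linked to glucose transporter turnover, was at 54.4, 46.6, 43.6 and 49.3 CPM in untreated and 102, 79.2, 66.5 and 77.9 CPM in lipid-treated libraries. The groups did not overlap, and the difference was 1.66-fold (95% interval 1.54 to 1.80, log2 fold change 0.73, standard error 0.052) in all 4 letters. *Arrdc3*, known as a regulator of beta-adrenergic receptors and of energy expenditure, was at 55.9, 41.6, 41.2 and 40.8 CPM in untreated and 64.6, 56.2, 65.2 and 54.0 CPM in lipid-treated libraries. Untreated library A was high and overlapped with the lipid-treated range. The log2 fold change was 0.43 (95% interval 0.22 to 0.64, standard error 0.099), with a higher level in all 4 letters.

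*Arrdc1*, which takes part in the budding of vesicles from the plasma membrane, was at 4.27 to 5.85 CPM in untreated and 4.29 to 5.45 CPM in lipid-treated libraries, fully overlapping. Its log2 fold change was -0.039 (95% interval -0.32 to 0.24). *Arrdc2* was at 2.25 to 3.35 CPM in untreated and 2.25 to 2.60 CPM in lipid-treated libraries, with a log2 fold change of -0.30 (95% interval -0.65 to 0.057) and a lower level in 3 of 4 letters. *Arrdc2* had the fewest counts of the family, 48 to 109 per library over all groups. In edgeR's quasi-likelihood fit *Txnip*, *Arrdc4* and *Arrdc3* had an adjusted p under 0.05 with a higher level, so 3 of 5 were called. Of all genes tested, 23.8% were called higher with lipid. *Txnip* and *Arrdc4* were the 2 of 5 whose libraries did not overlap, against 32.5% of all genes tested. Without untreated replicate A, *Arrdc2* was also called (log2 fold change -0.43), which gave 4 of 5.

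The second question was what itaconate did by itself. *Txnip* was at 39.5, 35.5, 29.6 and 27.4 CPM in itaconate-treated libraries A to D. Each was above the untreated library of its own letter, by 0.26 to 0.39 on the log2 scale, but the groups overlapped. The fitted log2 fold change was 0.34 (standard error 0.17, 95% interval -0.020 to 0.69). *Arrdc3* was at 61.9, 53.8, 55.3 and 51.5 CPM with itaconate, higher than the untreated library in all 4 letters (log2 fold change 0.32, 95% interval 0.11 to 0.53). All itaconate-treated libraries but A were below untreated library A.

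*Arrdc1* was lower with itaconate in all 4 letters, at 4.89, 4.58, 3.35 and 3.37 CPM against 5.33, 5.85, 4.27 and 4.52 CPM in untreated libraries A to D (log2 fold change -0.31, 95% interval -0.59 to -0.026). *Arrdc4* stayed close to the untreated level, at 56.8, 43.0, 38.0 and 48.2 CPM (log2 fold change -0.071, 95% interval -0.18 to 0.040). *Arrdc2* was at 2.51 to 3.19 CPM (log2 fold change -0.015, 95% interval -0.36 to 0.33). None of the 5 genes was called in edgeR, where 4.91% of all genes tested were, and none had groups that did not overlap (7.53% of all genes). At an unadjusted p under 0.05 there were 2 of 5, *Arrdc1* and *Arrdc3* (21.3% of all genes), and DESeq2 called 1, *Arrdc3* (6.78% of all genes). *Arrdc3* was also called by edgeR without lipid replicate C, lipid + itaconate replicate B or lipid + itaconate replicate C, and both *Txnip* and *Arrdc3* were called with no filter or when the model held just those 8 libraries.

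The third question was what itaconate did to hepatocytes loaded with lipid. *Arrdc4* was at 66.6, 57.0, 45.1 and 54.7 CPM in lipid + itaconate libraries A to D, against 102, 79.2, 66.5 and 77.9 CPM with lipid alone. Library A of the combined treatment was level with library C of lipid alone, so the groups overlapped at their edges, but within letters the differences were nearly equal, at -0.61, -0.47, -0.56 and -0.51 on the log2 scale. The fitted log2 fold change was -0.54 (standard error 0.051, 95% interval -0.65 to -0.43), which is 0.687-fold. It ran from -0.58 to -0.51 when single libraries were left out, and was -0.58 without lipid + itaconate replicate B.

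*Txnip* had a similar mean difference but not the same evenness. Lipid + itaconate libraries A to D were at 143, 117, 60.6 and 71.1 CPM. Libraries C and D lay below every library of lipid alone, by 1.25 and 1.02 on the log2 scale within their letters, whereas the differences in A (-0.096) and B (0.052) were small. The fitted log2 fold change was -0.57 (standard error 0.15, 95% interval -0.89 to -0.24). That interval uses a spread fitted over all 16 libraries. The 4 differences within letters had an SD of 0.65, and the interval does not measure how far they disagreed. The difference was not called at the adjusted threshold. Without lipid + itaconate replicate B it was -0.68 and called, as it was without lipid replicate B (-0.73), and without lipid + itaconate replicate C it was -0.40 and not called. Libraries C and D were also the most alike pair in each of the 4 groups over all genes, at 10.0 to 15.5 times counting noise.

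*Arrdc3* showed the same division by letter, with 67.5, 70.0, 44.5 and 49.6 CPM in lipid + itaconate libraries A to D, so that A and B were higher and C and D lower than with lipid alone (log2 fold change -0.065, 95% interval -0.27 to 0.14). The sign of that small difference turned without lipid replicate C (0.029) or lipid + itaconate replicate C (0.050). *Arrdc1* was at 4.43 to 5.69 CPM (log2 fold change 0.039, 95% interval -0.24 to 0.32) and *Arrdc2* at 1.95 to 2.81 CPM (log2 fold change 0.0065, 95% interval -0.35 to 0.36), both overlapping with lipid alone. *Arrdc4* was the 1 gene of 5 called, with a lower level, where 1.26% of all genes tested were called lower. None of the 5 had groups that did not overlap, against 5.82% of all genes. Without the replicate letter in the model 0 of 5 were called, with *Arrdc4* at -0.54.

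**Figure D3:**
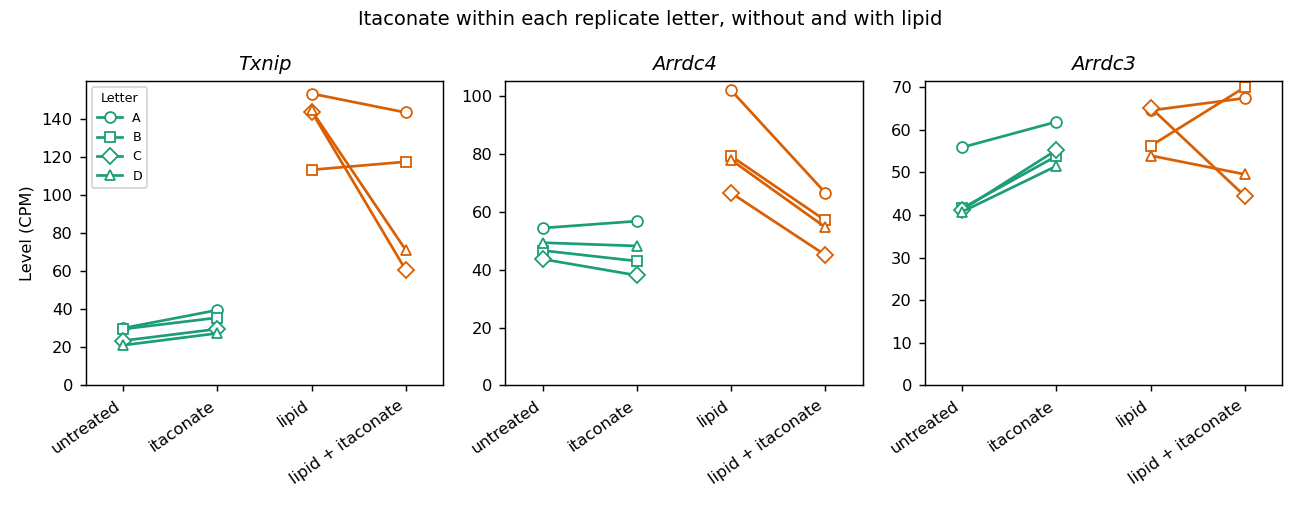
Levels of *Txnip*, *Arrdc4* and *Arrdc3* in CPM (y axis, from 0), with lines joining the libraries of the same replicate letter without and with itaconate (green, no lipid; orange, lipid present). The 4 orange lines of *Arrdc4* all fall, most steeply for A on this CPM scale, while those of *Txnip* fall steeply for C and D and stay near level for A and B.

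The effect of lipid in the presence of itaconate completed the design. *Txnip* was still higher with lipid, 2.89-fold (95% interval 2.28 to 3.67, log2 fold change 1.53, standard error 0.16), in all 4 letters and with no overlap between groups. *Arrdc4* was 1.20-fold higher (log2 fold change 0.26, 95% interval 0.15 to 0.37, standard error 0.052), in all 4 letters but with overlapping groups. *Arrdc3* had a log2 fold change of 0.046 (95% interval -0.16 to 0.25), with 2 letters higher and 2 lower. *Arrdc1* had a log2 fold change of 0.31 (95% interval 0.027 to 0.59) and was higher in 3 of 4 letters. *Arrdc2* had one of -0.28 (95% interval -0.62 to 0.073). *Txnip* and *Arrdc4* were called, 2 of 5, where 23.5% of all genes tested were called higher. *Txnip* was the 1 of 5 with groups that did not overlap (31.5% of all genes). *Arrdc1* was also called without itaconate replicate A or lipid + itaconate replicate A. Without the replicate letter *Arrdc4* was not called, which left 1. This comparison and the 3 before it share groups of libraries with each other.

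The difference between the itaconate effects with and without lipid was estimated as an interaction in the same model. For *Arrdc4* it was -0.47 on the log2 scale (standard error 0.073, 95% interval -0.62 to -0.31), negative in each letter from -0.36 to -0.68. For *Txnip* it was -0.91 (95% interval -1.39 to -0.42). It was also negative in each letter but from -0.21 in B to -1.58 in C, with an SD of 0.67 between letters. For *Arrdc3* it was -0.38 (95% interval -0.68 to -0.088), negative in all 4 letters, whereas for *Arrdc1* it was 0.35 (95% interval -0.049 to 0.74), positive in all 4. *Arrdc2* was at 0.022 (95% interval -0.47 to 0.52). None of the 5 genes was called by edgeR, in a test that called 1 of 11675 genes (0.00857%). At an unadjusted p under 0.05 there were 3, *Txnip*, *Arrdc3* and *Arrdc4* (8.60% of all genes), and DESeq2 called 1, *Arrdc4* (0.308% of all genes). *Arrdc4* was also called by edgeR with RLE normalization, and without untreated replicate C, itaconate replicate B, lipid replicate B or lipid + itaconate replicate B.

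**Figure D4:**
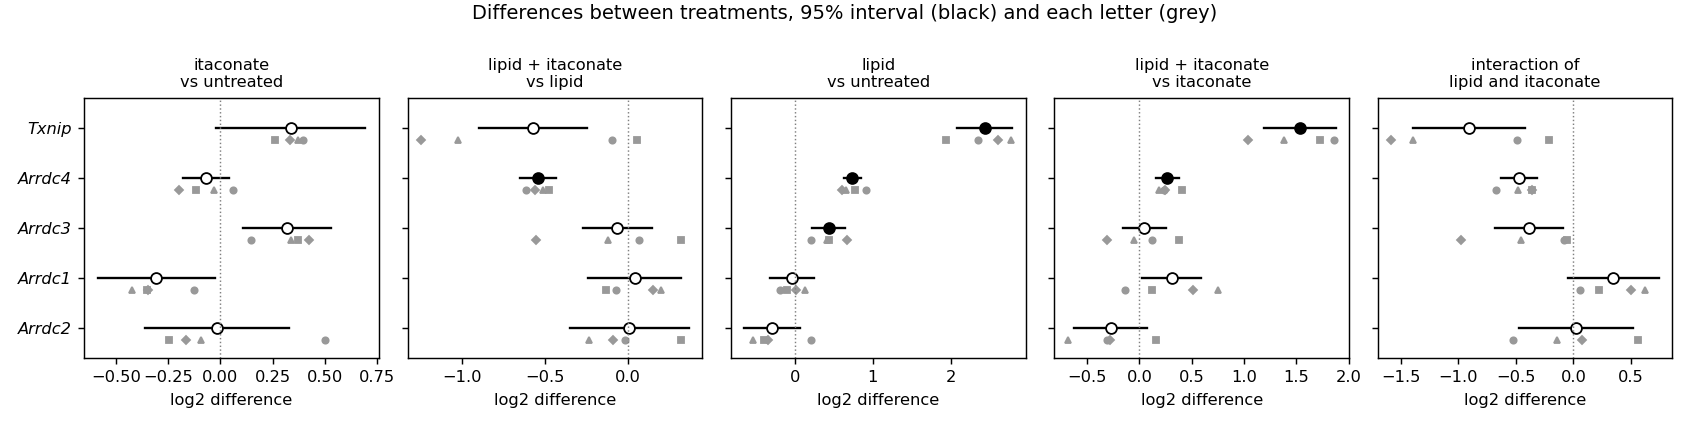
Fitted log2 differences of the 5 genes (x axis, separate scale in each panel) in the 4 comparisons and the interaction, with the 95% interval as a black line, a filled circle where the gene was called, and the 4 differences within letters in grey (shapes as letters A circle, B square, C diamond, D triangle). *Arrdc4* has the shortest intervals, and *Txnip* the largest difference with lipid, at 2.44.

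Over the 5 genes the median log2 fold change was 0.43 with lipid alone (0.0047 over all genes tested) and 0.26 with lipid in the presence of itaconate (0.0041 over all genes). It was -0.015 for itaconate alone (-0.0019 over all genes), -0.065 for itaconate added to lipid (-0.00013 over all genes) and -0.38 for the interaction (0.0043 over all genes).

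Genes related to the family were taken from 6 lists of 68 genes in all, of which 59 were tested. The lists were also chosen with earlier results of these libraries known, so the adjusted p values of their genes are descriptions too. The first list holds the Mondo factors and targets of the carbohydrate response. With lipid 2779 of all 11675 genes tested were called higher and 2767 lower. In this list 10 of the 17 tested genes rose and 4 fell, and its median log2 fold change was 0.29. Those that rose included *Acaca*, which encodes the enzyme that commits acetyl-CoA to fatty acid synthesis (log2 fold change 1.39, adjusted p = 6.65e-08 in edgeR), and *Tkfc*, a triose kinase (0.91, adjusted p = 3.61e-08 in edgeR). *Acaca* went from 47.1 ± 1.82 to 124 ± 14.3 CPM and *Tkfc* from 74.8 ± 15.1 to 139 ± 15.5 CPM (SD, n = 4), each in all 4 letters. Of the factors, *Mlxipl* (0.29, adjusted p = 0.0210 in edgeR) and *Mlx* (0.19, adjusted p = 0.0204 in edgeR) rose and *Mlxip* fell by 0.29 (adjusted p = 0.00303 in edgeR). These 3 and *Fasn*, *Scd1* and *Me1*, the lipogenic genes that fell by 0.28 to 0.29, were named after their values were seen.

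When itaconate was added to lipid, 4 of the 17 genes fell and 0 rose, with a list median of -0.15. Of all genes tested 1.26% were called lower there. *Pklr*, liver pyruvate kinase and the classic ChREBP target, went from 114 ± 17.2 to 75.8 ± 4.89 CPM (SD, n = 4), a fall on the log2 scale of -0.57 ± 0.14 (SE, edgeR adjusted p = 0.0427). *Acaca* fell by 0.48 (adjusted p = 0.0221 in edgeR) and *Tkfc* by 0.40 (adjusted p = 0.00398 in edgeR), and these 3 genes were lower in all 4 letters. The remaining gene was *Acly*, ATP citrate lyase, which fell by 0.26 (adjusted p = 0.0278 in edgeR). The call of *Tkfc* held whichever library was left out, and that of *Acaca* was lost without lipid replicate C or D or lipid + itaconate replicate D. That of *Acly* was lost when lipid replicate C or D was left out, and also without A, B or D of the combined treatment. That of *Pklr* was lost in 9 of 16 such refits, those without A, B or D of the untreated, A, C or D of the lipid-treated, or A, B or D of the combined group. Without the replicate letter none of the 4 was called, and with the 8 libraries of these groups alone *Pklr* was the only one called. With itaconate alone 0 of the 17 genes were called. The log2 fold changes there were -0.45 for *Pklr* and -0.19 for *Acly*, against 0.099 for *Acaca* and 0.010 for *Tkfc*. The difference between the itaconate effects with and without lipid was -0.13 for *Pklr* and -0.073 for *Acly*. It was -0.57 for *Acaca* and -0.41 for *Tkfc*. In the presence of itaconate lipid raised 5 and lowered 5 of the 17, with log2 fold changes of 0.82 for *Acaca* and 0.50 for *Tkfc*.

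The FoxO and glucocorticoid list has 15 genes, all tested, which respond to fasting and to the hormones of fasting. With lipid 3 rose and 4 fell, with a median log2 fold change of -0.090. *Pdk4*, which restrains pyruvate oxidation, went from 307 ± 48.2 to 121 ± 17.9 CPM (log2 fold change -1.34, adjusted p = 1.58e-08 in edgeR). *Pck1*, the gluconeogenic PEPCK, fell by 0.61 and *Zbtb16*, a glucocorticoid-induced transcription factor, rose by 0.76. When itaconate was added to lipid only *Pdk4* was called of this list, with a rise of 0.47 (adjusted p = 0.0122 in edgeR) in all 4 letters, and it was not called without lipid + itaconate replicate A, without the replicate letter, or with the 8 libraries alone. With itaconate alone *Ppargc1a*, a coactivator of gluconeogenesis and mitochondrial genes with a mean under 5 CPM that is named because it was the only gene called of all 59, rose by 0.69 (adjusted p = 0.0121 in edgeR). It was higher in every refit, but not called without itaconate replicate C or without the replicate letter. In the presence of itaconate lipid raised 4 and lowered 6 of the 15, led by *Pdk4* (log2 fold change -1.09), *Pck1* (-0.88) and the glucocorticoid receptor *Nr3c1* (-0.41).

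Among genes for protein partners of the family more were called lower than higher with lipid. Over all 11675 genes tested 2767 were called lower and 2779 higher, and 2743 and 2740 in the presence of itaconate. Of 6 tested genes of the thioredoxin system and *Txnip* partners, 3 fell and 1 rose. *Txnrd1*, thioredoxin reductase, fell by 0.46 (888 ± 39.1 to 646 ± 28.9 CPM, adjusted p = 9.68e-07 in edgeR) and *Txn1*, thioredoxin, by 0.25 (389 ± 19.9 to 327 ± 21.5 CPM, adjusted p = 0.000195 in edgeR), each in all 4 letters. *Ddit4*, whose product binds Txnip, rose by 0.30, but in 2 of 4 letters only. Of 11 tested ubiquitin ligases and vesicle partners 5 fell and 1 rose. The largest falls were in the NEDD4 family ligases *Nedd4l* (by 0.68, adjusted p = 1.27e-07 in edgeR) and *Itch* (by 0.36), and in *Pdcd6ip* (by 0.45), the vesicle protein Alix. The gene that rose was the ligase *Nedd4* itself (by 0.15), named after its values were seen. At 537 CPM on average it was the most abundant gene of this list, against 58.1 CPM for *Nedd4l* and 62.3 CPM for *Itch*. The same lists had 1 higher and 2 lower, and 1 higher and 5 lower, when lipid was compared in the presence of itaconate. There *Txnrd1* fell by 0.37, *Txn1* by 0.15, *Nedd4l* by 0.74, *Pdcd6ip* by 0.36 and *Smurf1* by 0.36. *Ddit4* rose by 0.27 and *Nedd4* by 0.12. That call of *Nedd4* was lost with no filter, with the 8 libraries alone, and without itaconate replicate A, B or C or lipid + itaconate replicate A or C.

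Of 6 tested membrane proteins described as cargo of alpha-arrestins, the glucose transporter *Slc2a2* (0.40, adjusted p = 0.0299 in edgeR) and the insulin receptor *Insr* (0.32, adjusted p = 1.92e-05 in edgeR) rose with lipid and *Egfr* fell by 0.27. In the presence of itaconate *Insr* rose by 0.19, the iron transporter *Slc11a2* by 0.14, and *Egfr* fell by 0.19. Without the replicate letter *Slc11a2* and *Egfr* were not called. Of 5 tested genes with a related arrestin fold 3 rose with lipid and 1 fell, among them the beta-arrestin *Arrb2* (0.38), *Vps26b* (0.13) and *Vps26c* (a fall of 0.18), subunits of endosomal sorting complexes. *Arrb2* rose by 0.51 in the presence of itaconate, the only one of the 5 to be called there. In these 4 lists 0 genes were called for itaconate, alone or with lipid. Over all 59 genes (*Slc2a2* stands in 2 lists) 37 were called with lipid, where 47.5% of all genes tested were, and 33 for lipid in the presence of itaconate, where 47.0% were. For itaconate added to lipid 5 of the 59 were called (2.58% of all genes), with 20 at an unadjusted p under 0.05 (17.3%) and 8 called by DESeq2 (4.36%). For itaconate alone 1 of the 59 was called, against 4.91% of all genes. At an unadjusted p under 0.05 there were 11 (21.3% of all genes), and DESeq2 called 3 (6.78%). The interaction called 0 of the 59 (0.00857% of all genes). There 5 were at an unadjusted p under 0.05 (8.60% of all genes) and 2 were called by DESeq2 (0.308%).

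**Figure D5:**
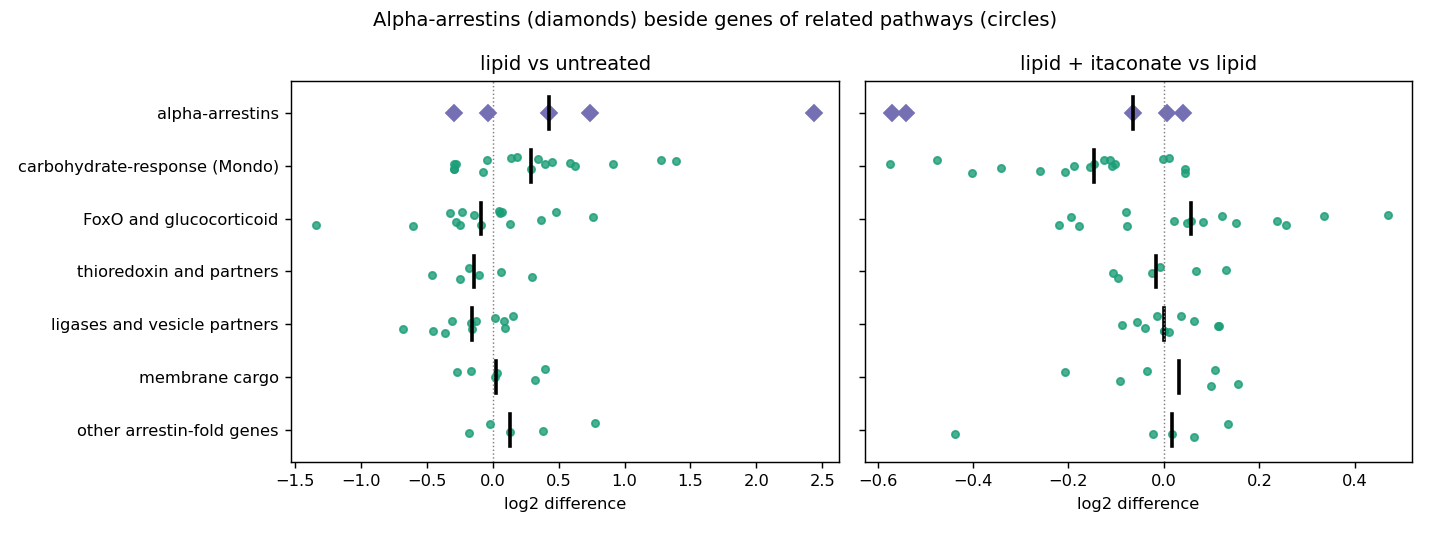
Fitted log2 differences (x axis) of the 5 alpha-arrestins (diamonds) and of the tested genes of 6 related lists (circles), for lipid against untreated (left) and lipid + itaconate against lipid (right), with the median of each row as a black bar. The carbohydrate-response row has a median of 0.29 on the left and -0.15 on the right, and the *Txnip* diamond lies at 2.44 on the left.

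The genes most like each member were found by Pearson's r of log2 CPM over the 16 libraries after subtraction of the letter means, among 9308 genes of at least 5 CPM. The libraries fall into treatment groups that many genes follow, so r is given as a description. *Acaca* was most like *Txnip* (r = 0.990), followed by *Lrrc28* (0.989) and the DNA methyltransferase *Dnmt3a* (0.984). *Eef2k*, the kinase of elongation factor 2, was most like *Arrdc4* (r = 0.962), followed by *Rpgrip1l* (0.950) and *Plcl2* (0.945). The first genes for *Arrdc3* were *Rnf2* (0.964), *Cxadr* (0.948) and *Gdap2* (0.944). For *Arrdc1* they were *Zup1* (0.884), *Anxa11* (0.865) and *Gramd1a* (0.863), and for *Arrdc2* they were *Zfp959* (0.866), *Hps6* (0.845) and *Csnk2a2* (0.841). Within the family r was 0.853 between *Txnip* and *Arrdc4*, 0.700 between *Txnip* and *Arrdc3* and 0.476 between *Arrdc3* and *Arrdc4*. It was -0.554 between *Txnip* and *Arrdc2* and -0.520 between *Arrdc1* and *Arrdc2*.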

How the data were processed

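The authors demultiplexed reads with bcl2fastq 2.20, trimmed them with Cutadapt 1.18, aligned them to mm10 with STAR 2.7.0f and quantified GENCODE genes with RSEM 1.3.1 (Picard 2.18.26 for mapping statistics), as listed in the submitters' processing notes. The values deposited by the authors are expected counts per gene, without normalization, of which 5.41% were not whole. RSEM splits reads that match more than 1 gene by its estimates, so counts of paralogs carry that uncertainty. All 55450 identifiers matched GENCODE M21 (GRCm38), the source of positions and lengths.

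The rounded counts were fitted with edgeR 4.0.16 under R 4.3.3 (TMM normalization, quasi-likelihood test, treatment and replicate letter as terms, all 16 libraries) for the genes whose mean reached 1 CPM, with Benjamini-Hochberg adjustment and a threshold of 0.05. The code was tested on simulated data. CPM values are TMM-scaled, with a prior count of 0.5 added for log2 values. Intervals come from the same fit, whose spread is shared by all 16 libraries. They do not measure how far the letters disagreed within a comparison. Same-letter libraries deviated together from their group means (24 correlations, 0.144 to 0.469), so the letter was kept. The 72 other pairs ran from -0.44 to 0.18 (median -0.114), so the ranges overlapped at their edges. The study removed batch effects with a linear model, and what its batches were is not given in the sources used here. No pair of 24 was a duplicate (at least 10.0 times counting noise). Where replicates are not separate animals, p values measure only the spread between libraries.

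The members and lists were chosen with earlier results of these data known. The lists come from general knowledge of these pathways. Named list genes are, per list and comparison, up to 3 with the largest change among those with an adjusted p under 0.05 and a mean of at least 5 CPM. Alternatives were a model without the letter, RLE normalization, absence of the filter, a fit on the 8 libraries compared, DESeq2 1.42.0 and each library left out in turn. A gene that this rule names is not reported here. Protein sequences were not used here.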

Additional observations from a re-analysis of the deposited data

Results flagged for a closer look

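In groups of 4 libraries, a library was picked out where its gap to the nearest other exceeded Dixon's 95% limit, which chance passes in about 1 of 20 groups. Among 108 groups (the 5 members and the named list genes), 7 had such a library. *Arrdc3* was at 55.9 CPM in untreated replicate A against 40.8 to 41.6 CPM in the others, and *Arrdc2* at 2.595 CPM in lipid replicate A against 2.25 to 2.31 CPM. *Acaca* was at 54.0 CPM in itaconate replicate D, *Pdk4* at 235 CPM in untreated replicate A and at 209.9 CPM in lipid + itaconate replicate B, *Txn1* at 359 CPM in untreated replicate D and *Zbtb16* at 7.27 CPM in itaconate replicate B.

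*Acaca*, the gene most like *Txnip*, was higher with itaconate in all 4 letters without lipid and lower in all 4 letters with lipid. The interaction was -0.57 on the log2 scale and did not pass the threshold (adjusted p = 0.257 in edgeR).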

How the results depend on the processing

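Of 520 refitted log2 fold changes of the 5 members, 495 stayed within 1 SD of the letter differences and on their side of the threshold, 2 lost a call, 23 gained one and 0 that were called turned. The losses were *Arrdc4* for itaconate added to lipid (-0.54) and for lipid added to itaconate (0.26), both with no replicate block. The cause of the other shifts was not tested.

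With no filter 25152 genes were tested in place of 11675, so counts of calls in that setting have a larger base. For itaconate alone, genes called (573) were 23 with no replicate block, 1091 with no filter and 1859 with only the 8 libraries. Members called (0) were 2, 2 and 1 with no filter, the 8 libraries and DESeq2. Pathway genes called (1) were 0 with no replicate block, 10 with no filter, 14 with the 8 libraries and 3 with DESeq2. For itaconate added to lipid, genes called (301) were 9 with no replicate block, 725 with no filter, 14 with the 8 libraries and 509 with DESeq2. Members called (1) were 0 with no replicate block and 2 with no filter, and pathway genes called (5) were 0, 8, 1 and 8 in the order given for all genes. For lipid added to itaconate, members called (2) were 1 with no replicate block. For the interaction, genes called (1) were 0 with no replicate block, 2 with RLE, 231 with no filter and 36 with DESeq2. Members called (0) were 1 with RLE, 3 with no filter and 1 with DESeq2, and pathway genes called (0) were 6 with no filter and 2 with DESeq2. All other counts of calls in these alternatives stayed within 1.5 times. Refits with 1 library left out moved more of them, with ranges given below. Over all refits together 82 of 312 counts of calls moved further than that.

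The 5 list genes called for itaconate added to lipid kept their direction in all refits. With lipid alone, *Mlxipl* was not called without untreated replicate A, C or D or lipid replicate A, *Mlx* without untreated C or D or lipid B or C, *Ddit4* without C or D of either group, *Slc2a2* without untreated B, C or D or lipid C or D, and *Vps26b* without untreated C or D or lipid A, or with no filter. With no replicate block the calls of *Mlxipl*, *Mlx*, *Pklr*, *Khk*, *G6pc*, *Slc2a2*, *Scd1*, *Ddit4*, *Pck1* and *Foxo3* with lipid alone were lost. With lipid added to itaconate those of *Egfr*, *Txn1*, *Ddit4*, *Slc11a2*, *Acly*, *Me1*, *Scd1*, *Foxo3*, *Igfbp1* and *Tsc22d3* were lost in that setting. In the latter comparison *Slc11a2* was also not called with the 8 libraries or without B or C of itaconate or B, C or D of both, and *Ddit4* without C or D of itaconate or A or D of both. With 1 library left out, genes called ran from 149 (without itaconate C) to 1051 (without lipid + itaconate C) for itaconate alone, 59 (without lipid + itaconate A) to 891 (without lipid + itaconate C) for itaconate added to lipid, 4720 to 6007 for lipid alone, 4538 to 5568 for lipid added to itaconate and 0 to 8 for the interaction. Members called ran from 0 to 1, 1 to 2, 3 to 4, 2 to 3 and 0 to 1, and pathway genes called from 0 to 6 (with the same extremes as for all genes), 2 to 8, 31 to 38, 28 to 35 and 0 to 0. Over the means of all libraries the order of the members was the same by CPM as per kilobase. Within groups it was the same with lipid alone. By CPM *Arrdc3* (44.9) stood above *Txnip* (26.1) in untreated hepatocytes, above *Arrdc4* (46.5) and *Txnip* (33.0) with itaconate (55.6), and above *Arrdc4* (55.9) with both (57.9). With the letter effect left in, 1 of the 3 genes most like *Txnip* stayed, 1 for *Arrdc4* and 0 for the other members. *Arrdc2* and *Arrdc1* rest on the fewest counts per library (48 to 109 and 89 to 167).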
